A study of Mus musculus with 10 samples.

Results

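Rpl22 and Rpl22l1 are paralogous mouse genes that each encode a form of one protein of the large (60S) ribosomal subunit. They were followed in E14 mouse embryonic stem cells carrying the ANKRD11 Y347A mutation and in wild-type E14 cells. The pair was taken by gene name, as 2 of the 55401 genes in the deposited table of TPM values (length-scaled transcript shares). It was selected on measured values of these same libraries, namely the levels and the ratio of both genes in mutant and wild-type cells. Those levels and that ratio are therefore given as a description, with no test. The mutant group held 6 libraries in 3 numbered sets, and the wild-type group held 4 libraries in 2 numbered sets, with 2 libraries in each set. E14 is a mouse embryonic stem cell line, and the mutation, made with CRISPR/Cas9, replaces a tyrosine of ANKRD11, a chromatin regulator, with alanine. What a set stands for (a clone, a culture, a day) is open in the labels, as is whether both alleles were edited. Means below are therefore means over sets (n = 3 mutant and n = 2 wild-type sets), and their SD measures the spread between sets, which may be technical. Each p-value of the main fit rests on that spread, moderated by the spread of other genes. Fits with the set as a random block also use the spread within sets.

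RPL22 sits on the outer surface of the large subunit and binds RNA, and cells can make ribosomes and grow without it. Mice that lack Rpl22 are viable but are short of αβ T cells. RPL22L1 can take its place in the ribosome. In mouse cells the RPL22 protein binds Rpl22l1 mRNA and lowers it, so that loss of Rpl22 raises Rpl22l1.

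The transcripts of both genes can be told apart by sequence, and the stretches that carry this are shown because each level below depends on it. By GENCODE M21 (GRCm38, the assembly behind mm10), Rpl22 (ENSMUSG00000028936.15) lies on the plus strand at chr4:152325742-152334071, and Rpl22l1 (ENSMUSG00000039221.10) lies on the plus strand at chr3:28805436-28807424. The coding sequences of their reference transcripts, both of 4 exons, encode 128 and 122 residues. Aligned to each other they were identical at 259 of 369 gap-free positions (70.2%), and the longest run without a difference was 26 bases. The most alike 60 bases of coding sequence hold 8 differences, which are in capitals. In Rpl22 they are coding bases 231 to 290, which cross an exon junction between genome positions chr4:152330117-152332327, and in Rpl22l1 they are coding bases 213 to 272, which cross one between chr3:28806847-28807234.
Rpl22, most alike: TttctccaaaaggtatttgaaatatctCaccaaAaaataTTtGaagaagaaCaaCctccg
Rpl22l1, most alike: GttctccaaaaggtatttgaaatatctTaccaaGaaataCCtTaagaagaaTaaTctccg
The least alike 60 bases hold 24 differences, again in capitals. They are exonic coding bases 175 to 234 of Rpl22 (chr4:152330061-152330120) and 157 to 216 of Rpl22l1 (chr3:28806791-28806850).
Rpl22, least alike: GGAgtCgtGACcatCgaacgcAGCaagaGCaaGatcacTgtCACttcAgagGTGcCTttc
Rpl22l1, least alike: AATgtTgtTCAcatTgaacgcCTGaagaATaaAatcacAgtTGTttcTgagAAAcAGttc
No stretch of 50 bases was shared between any annotated transcripts of the 2 genes, and the same was true of the 7 other ribosomal protein paralogue pairs examined below.

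The libraries were alike in genes detected and overlapped in their ribosomal protein share, whereas the stem cell marker sums of the genotypes did not overlap. Between 12473 and 12812 genes had at least 1 TPM, and cytosolic ribosomal protein genes took 24.6 to 27.4% of all TPM in mutant libraries and 24.3 to 25.3% in wild-type libraries. All 8 embryonic stem cell markers examined were present in each library, with a summed level of 2735 to 3046 TPM in mutant and 3116 to 3331 TPM in wild-type libraries. Of 9 fibroblast feeder markers, 8 stayed under 1 TPM and Dcn and Postn were at 0 in each library, and the list summed to 1.62 to 2.72 TPM in mutant and 2.48 to 4.94 TPM in wild-type libraries. All 7 primitive endoderm markers stayed under 1 TPM, with sums of 0.67 to 1.59 TPM in mutant and 0.63 to 1.65 TPM in wild-type libraries. The part of the lower stem cell marker sum in the results below was not tested. TPM are shares of a library, so depth is unknown.

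Rpl22l1 was lower in mutant cells, at 0.530 of its wild-type level. In mutant libraries it stood at 388 and 423 TPM in set 1, 447 and 418 TPM in set 2, and 407 and 446 TPM in set 3. In wild-type libraries it stood at 744 and 842 TPM in set 1, and 767 and 829 TPM in set 2. All mutant libraries lay below all wild-type libraries, and the sets of one genotype lay close together. The mean was 422 ± 14 TPM in mutant cells and 795 ± 3.21 TPM in wild-type cells (SD over 3 and 2 sets). On the log2(TPM + 1) scale the difference was -0.91 ± 0.06 (estimate ± SE). Libraries of one set differed by up to 0.18 on the log2 scale, in wild-type set 1, and the difference between genotypes was several times larger. In bulk RNA, fewer cells of a type and less RNA per cell cannot be told apart.

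Rpl22 was slightly higher in mutant cells. Its levels in mutant libraries were 3854 and 4141 TPM in set 1, 3498 and 3706 TPM in set 2, and 3763 and 3800 TPM in set 3. In wild-type libraries its levels were 3239 and 3257 TPM in set 1, and 3267 and 3262 TPM in set 2. All mutant libraries lay above the wild-type libraries, which were nearly equal, whereas the mutant sets were spread out and set 1 was highest. The mean was 3794 ± 198 TPM in mutant cells and 3256 ± 11.5 TPM in wild-type cells, a ratio of 1.17. The difference on the log2(TPM + 1) scale was 0.22 ± 0.06 (estimate ± SE). Among all 12797 genes tested, those with a mean of at least 1 TPM, 48.4% had a larger absolute difference than Rpl22 and 3.60% had a larger one than Rpl22l1.

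These positions are read against how often genes separated at all. With limma's moderated test on set means and Benjamini-Hochberg adjustment at 0.05, 892 genes (6.97%) passed as higher in mutant cells and 1350 (10.5%) as lower. All mutant libraries lay above all wild-type libraries for 12.4% of the genes tested and below them for 19.4%. Separation of the libraries was thus common, and because the pair was chosen on this contrast nothing further is read from it for Rpl22 or Rpl22l1.

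**Figure D1:**
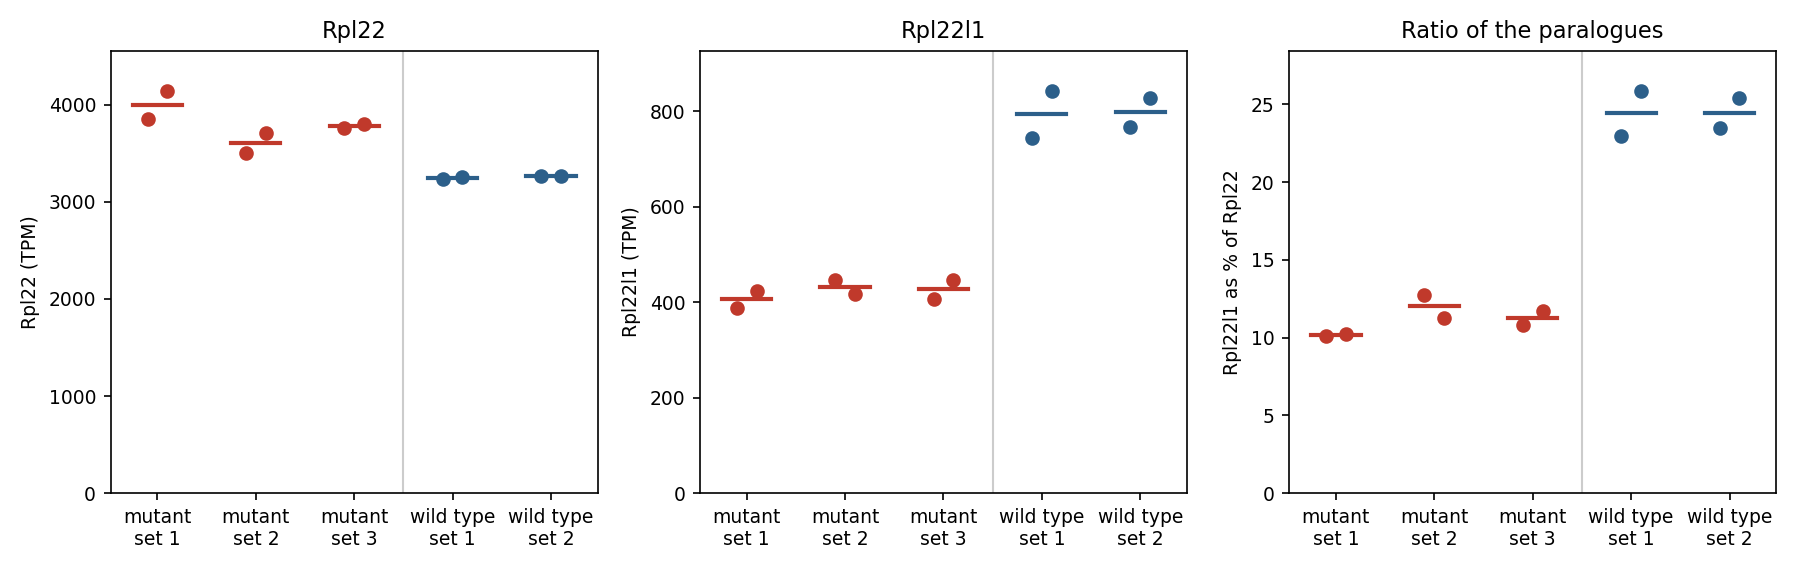
Levels of Rpl22 (left, TPM) and Rpl22l1 (middle, TPM) and the level of Rpl22l1 as a percentage of that of Rpl22 (right), by set. Each point is a library and each bar the mean of a set's 2 libraries, with mutant sets in red on the left of the line and wild-type sets in blue on the right. Mutant libraries lie above wild type for Rpl22 and below it for Rpl22l1 (388 to 447 TPM against 744 to 842 TPM), and the percentage is 10.1 to 12.8 against 23.0 to 25.9.

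The balance of the paralogues moved with both genes. The level of Rpl22l1 was 10.2, 12 and 11.3% of that of Rpl22 in mutant sets 1, 2 and 3, and 24.4% in each of wild-type sets 1 and 2. Rpl22l1 thus made up 10.03 ± 0.764% of the pair's summed TPM in mutant cells and 19.6 ± 0.0143% in wild-type cells. The 2 wild-type set means nearly coincided, while single libraries ran from 18.7 to 20.5% in wild-type and from 9.15 to 11.3% in mutant cells. The log2 ratio of Rpl22l1 over Rpl22 was -3.17 ± 0.12 in mutant and -2.03 ± 0.0019 in wild-type sets (SD over sets), a difference of -1.13. By library it ran from -3.31 to -2.97 in mutant and from -2.12 to -1.95 in wild-type cells. Most of that difference came from Rpl22l1, as the 2 log2 differences above show.

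The summed level of the pair overlapped between genotypes. It ranged over 3945 to 4564 TPM in mutant libraries and 3983 to 4100 TPM in wild-type libraries. The means were 4215 ± 185 TPM in mutant and 4052 ± 14.7 TPM in wild-type cells, a ratio of 1.04. In TPM the mean of Rpl22 was larger in mutant cells by more than the mean of Rpl22l1 was smaller.

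Set against the rest of its subunit, each gene kept its direction. Relative to the mean log2 level of 46 other large-subunit genes in the same library, Rpl22 stood 0.59 ± 0.03 log2 units above in mutant sets and 0.41 ± 0.03 above in wild-type sets, a difference of 0.18. Its relative position ran over 0.49 to 0.64 in mutant libraries and 0.38 to 0.44 in wild-type libraries. Rpl22l1 stood at -2.58 ± 0.10 log2 units in mutant sets and -1.62 ± 0.03 in wild-type sets, a difference of -0.95. A scaling factor per library cancels in this measure, and neither gene overlapped between genotypes in it. The pair was chosen on these same values, and how often other genes separate in this measure was not tested.

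**Figure D2:**
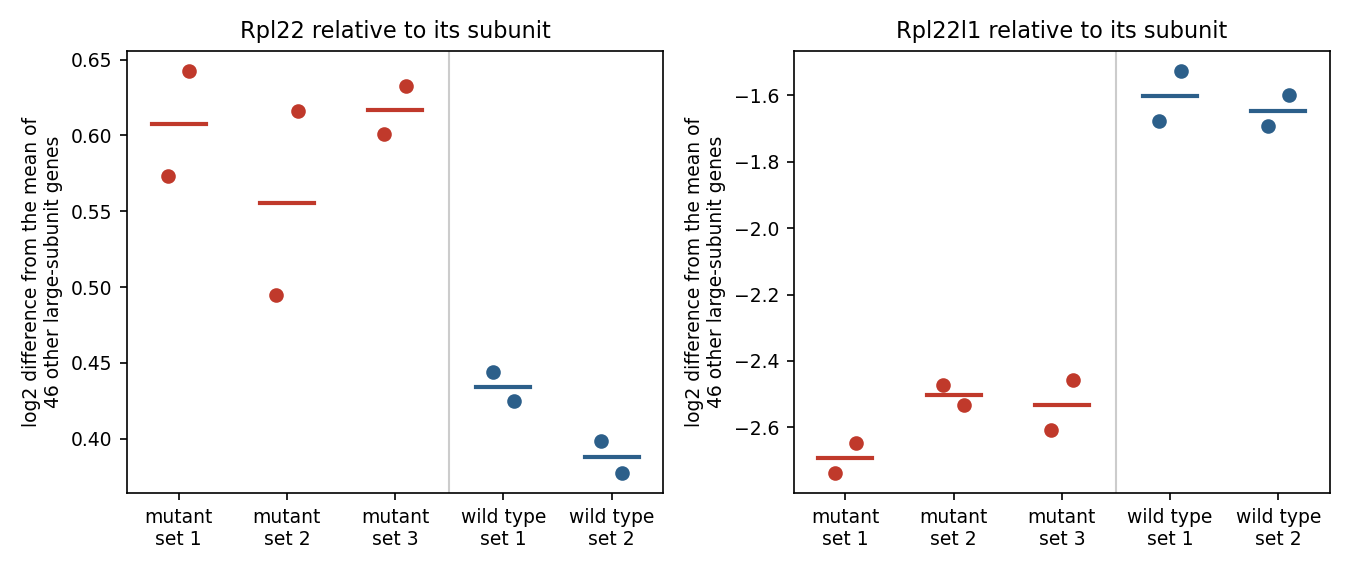
Level of Rpl22 (left) and Rpl22l1 (right) relative to 46 other large-subunit ribosomal protein genes, as the log2 difference from their mean in the same library. Points are libraries and bars are set means, mutant sets in red left of wild-type sets in blue. The vertical axes differ between panels and do not start at 0: Rpl22 spans 0.49 to 0.64 in mutant and 0.38 to 0.44 in wild-type libraries, and Rpl22l1 spans -2.74 to -2.46 in mutant and -1.69 to -1.53 in wild-type libraries.

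In the order of TPM levels among these 48 genes, which TPM already sets per transcript length, Rpl22 was 13th in mutant cells and 15th in wild-type cells. In mutant cells it lay next to Rpl10, also of the large subunit (3802 TPM in mutant, 3398 TPM in wild-type cells). Its mutant libraries overlapped with those of Rpl10 (3271 to 4757 TPM), and its wild-type libraries lay below those of Rpl10 (3351 to 3433 TPM). Rpl22l1 was 47th in both genotypes, with Rpl34 above and Rpl29 below it. It lay well below Rpl34 in mutant cells, where Rpl34 had 743 to 852 TPM, and overlapped with Rpl34 in wild-type cells, where Rpl34 had 820 to 866 TPM. Rpl29 had 215 to 264 TPM in mutant and 266 to 287 TPM in wild-type libraries, below Rpl22l1 in each.

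Reads from processed pseudogenes and overlapping genes could touch these values, since nothing used here states the strand setting of the authors' counting. Of the 503 stretches of 50 bases in the Rpl22l1 reference transcript, 65.6% also occurred in 4 other annotated genes, and 50.8% of its 453 stretches of 100 bases did so in 2 of them. These 2 were Gm15421, a transcribed processed pseudogene on the minus strand at chr5:22528321-22529244, and Gm33051, an antisense gene overlapping Rpl22l1, which was listed at 0 TPM in all libraries. For the Rpl22 reference transcript the share was 24.5% of 425 stretches of 50 bases, in 4 processed pseudogenes with at most 2.73 TPM in any library, and 0 of 375 stretches of 100 bases.

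Gm15421, examined for its shared sequence and not under the rule for named genes, moved the same way as Rpl22l1. It had 2.51, 2.65, 1.82, 3.01, 2.46 and 4.82 TPM in the mutant libraries and 7.92, 6.85, 3.66 and 9.25 TPM in the wild-type libraries. The highest mutant library lay above the lowest wild-type library. The means were 2.88 ± 0.665 TPM in mutant and 6.92 ± 0.658 TPM in wild-type cells, and the log2 difference was -1.01 ± 0.17 (SE; adjusted p = 0.0149, limma). With the set as a random block over all libraries its adjusted p was 0.0678, and without library 1 of mutant set 3 or library 2 of wild-type set 2 it was 0.0619 and 0.111. The call was also lost without the filter on low values (0.0635), without mutant set 1 (0.0573) and without wild-type set 1 (0.112) or set 2 (0.104). Adding its TPM to those of Rpl22l1 gave 425 ± 14.1 TPM in mutant and 802 ± 2.56 TPM in wild-type cells, a ratio of 0.529. How the authors' counting divided reads between Rpl22l1 and Gm15421 was not tested. Rpl22-ps1, the pseudogene named for Rpl22, lay between 0 and 2.73 TPM and below the filter.

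The other cytosolic ribosomal protein genes had smaller estimates than Rpl22l1 (the list was written with earlier results of these data known). None of 46 other large-subunit genes and none of 32 small-subunit genes passed limma's test on set means, while 8 and 4 of them had an unadjusted p under 0.05, against 4472 of all 12797 genes tested. The median log2 difference was 0.08 for the large and 0.09 for the small subunit, against -0.04 over all genes tested, with 30 of 46 and 26 of 32 genes above 0. After quantile normalization these medians were 0.03 and 0.01. Of the 78 genes 12 then passed, 2 as higher and 10 as lower, and of all 12797 genes 1073 and 1039 did. With the set as a random block 16 of the 78 passed, 9 as higher and 7 as lower, and of all 12797 genes 1335 and 2063 did. The range was -0.23 to 0.21 for the large subunit and -0.19 to 0.22 for the small subunit, so the estimate for Rpl22 lay at the upper end and that for Rpl22l1 far below it.

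The genes closest to the threshold ran in both directions. Rpl7a, a large-subunit gene, had 2919 ± 79.0 TPM in mutant and 3348 ± 11 TPM in wild-type cells (log2 difference -0.20, adjusted p = 0.054). Rpl13, also of the large subunit, had 3861 ± 185 TPM in mutant and 3338 ± 97.4 TPM in wild-type cells (0.21, adjusted p = 0.066). In the small subunit Rps16 had 1735 ± 80.9 TPM in mutant and 1489 ± 53.7 TPM in wild-type cells (0.22, adjusted p = 0.060). In these estimates Rpl22 was matched by ordinary members of the ribosome, and Rpl22l1 by none of them.

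**Figure D3:**
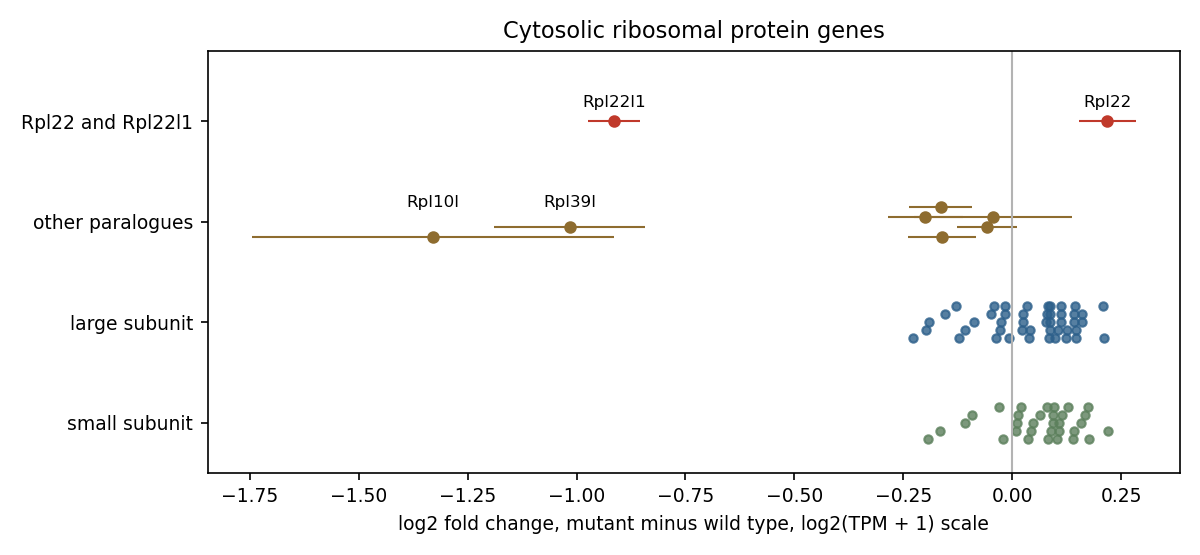
Log2 fold change, mutant minus wild type on the log2(TPM + 1) scale, of Rpl22 and Rpl22l1 (top row), 7 other ribosomal protein paralogues, 46 other large-subunit genes and 32 small-subunit genes. Points are genes, bars on the upper 2 rows are ± SE, and height within a row only separates points. Rpl22l1 (-0.91) lies with Rpl10l (-1.33) and Rpl39l (-1.02), while the subunit genes lie between -0.23 and 0.22, as does Rpl22 (0.22).

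The genes with an estimate as low as that of Rpl22l1 were 2 other paralogues. Rpl39l, a paralogue of the large-subunit gene Rpl39 known for its role in male germ cells, had 43.1, 47.6, 66.0, 56.4, 42.5 and 38.3 TPM in the mutant libraries and 85.2, 94.5, 105 and 111 TPM in the wild-type libraries. The groups did not overlap. Its means were 49 ± 10.9 TPM in mutant and 98.9 ± 12.8 TPM in wild-type cells, and Rpl39l fell by 1.02 ± 0.17 on the log2 scale (SE; adjusted p = 0.0146, limma). The adjusted p was 0.0577 without mutant set 1, and 0.0828 and 0.143 without wild-type set 1 and set 2, and 0.0635 without the filter on low values, so the call was lost in these 4 cases.

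Rpl10l, a paralogue of Rpl10 that serves in male meiosis, varied much more between sets. It had 50.8 and 48.8 TPM in mutant set 1, 28.7 and 29.3 TPM in set 2, and 93.4 and 82.6 TPM in set 3. In wild-type libraries it had 105 and 102 TPM in set 1, and 154 and 163 TPM in set 2. All mutant libraries lay below wild type, and the sets of each genotype were spread widely. The log2 difference was -1.33 ± 0.42 (SE), with an adjusted p of 0.068, and of 0.0366 without mutant set 3.

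As shares of their partner genes, all 7 other paralogues had a lower mean in mutant cells, and for 4 of them (Rpl10l, Rpl39l, Rps4l and Rpl36al) the libraries did not overlap. How often ratios of other gene pairs separate in this way was not tested. As levels, Rps4l and Rpl36al overlapped between genotypes, while their partners Rps4x and Rpl36a were higher in all mutant libraries. The log2 difference was -0.06 for Rpl36al and 0.16 for Rpl36a, and -0.16 for Rps4l and 0.08 for Rps4x. Only Rpl39l passed the test as a level, and none of the 7 partners did, with 1 partner at an unadjusted p under 0.05. Of all genes tested, 10.5% passed as lower and 6.97% as higher. With the set as a random block Rpl10l (adjusted p = 0.0122), Rps27l (0.0424) and the partners Rpl36a (0.0243) and Rpl7 (0.0430) passed as well. In that fit 3398 of all 12797 genes tested passed, so passing was common. Rpl10l was 1.52 ± 0.978% of Rpl10 in mutant and 3.86 ± 1.18% in wild-type sets, a difference of -1.47 in the log2 ratio. Rpl39l was 4.39 ± 0.898% of Rpl39 in mutant and 8.69 ± 0.666% in wild-type sets. Rps27l was 17.5 ± 2.27% of Rps27 in mutant and 22.0 ± 1.62% in wild-type sets, and Rps4l was 20.6 ± 1.45% of Rps4x in mutant and 24.3 ± 1.66% in wild-type sets.

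The remaining pairs differed less. Rpl36al was 28.0 ± 1.29% of Rpl36a in mutant and 32.6 ± 1.51% in wild-type sets, Rpl7l1 was 5.93% of Rpl7 in mutant and 6.16% in wild-type sets, and Rpl3l was 0.232% of Rpl3 in mutant and 0.247% in wild-type sets. The estimate for Rpl3l as a level turned positive (0.10) without mutant set 2. Among the 8 pairs the log2 ratio of Rpl22l1 over Rpl22 thus had the second largest difference. Its libraries of one genotype spanned at most 0.34 on the log2 scale, against 1.71 for Rpl10l over Rpl10. No p is given for the ratios: 3 against 2 sets cannot go below 0.1 in an exact two-sided permutation test.

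**Figure D4:**
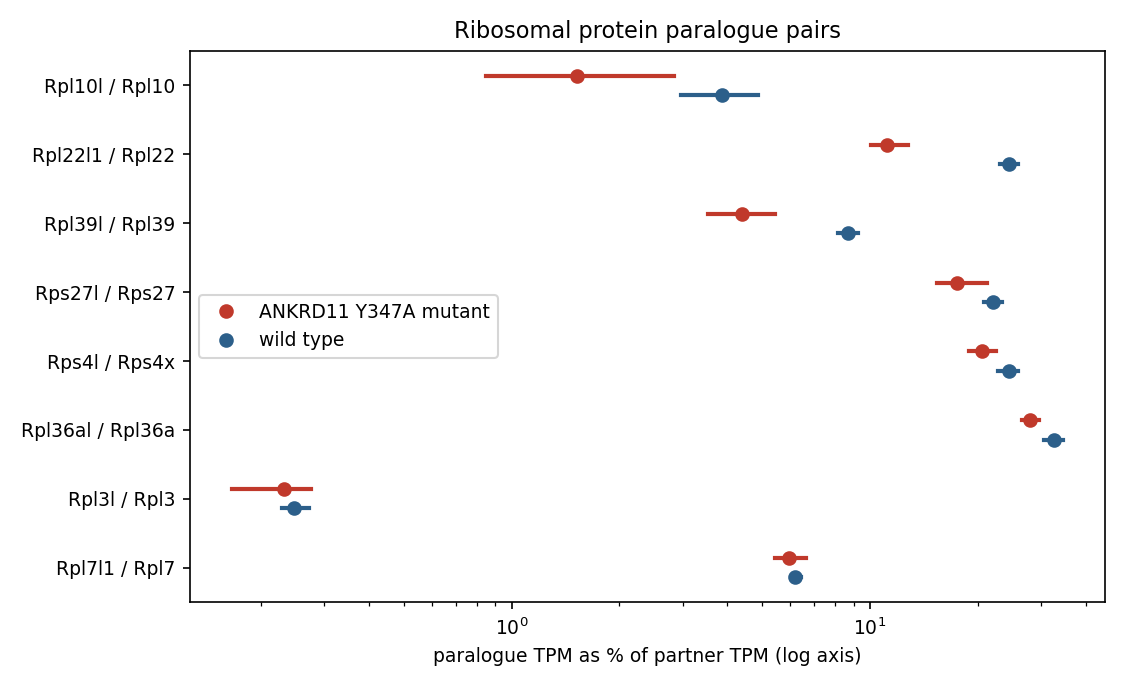
Level of each of 8 ribosomal protein paralogues as a percentage of its partner gene's TPM, on a log axis. Points are the means over sets, lines run from the lowest to the highest library, and mutant cells (red) are drawn above wild-type cells (blue) in each pair, ordered by the size of the difference in log2 ratio. Lines do not overlap for Rpl10l, Rpl22l1, Rpl39l, Rps4l and Rpl36al.

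Genes of ribosome assembly were examined because ribosomal protein genes and assembly factors are often read together. Of 34 tested, 12 fell and none rose, where 10.5% of all genes tested fell and 6.97% rose. Estimates were below 0 for 28 of the 34 and for 6994 of all 12797, with a median log2 difference of -0.27 in the list and -0.04 over all genes. Npm1, which encodes the nucleolar chaperone nucleophosmin, had 2390 ± 168 TPM in mutant and 3610 ± 46.9 TPM in wild-type cells and fell by 0.60 ± 0.07 (SE; adjusted p = 0.0065, limma). Nop16 (44.4 ± 2.98 TPM in mutant, 59.6 ± 3.90 TPM in wild-type cells, adjusted p = 0.025) and Ftsj3 (83.8 ± 4.62 TPM in mutant, 111 ± 0.396 TPM in wild-type cells, adjusted p = 0.018), both nucleolar factors, also fell. Nmd3, the adaptor that exports the large subunit from the nucleus, had 87.5 ± 5.71 TPM in mutant and 116 ± 4.16 TPM in wild-type cells (adjusted p = 0.020). The 12 calls depended on the sets, as did those over all genes. Leaving out mutant set 1 or mutant set 3 gave 1 call each, while lower calls over all genes went from 1350 to 413 and 605. The calls of Nop16, Ftsj3 and Nmd3 were lost in both cases (adjusted p between 0.0504 and 0.0700, limma). Those of Nop16 (0.0629) and Nmd3 (0.0548) were also lost without the filter on low values. Without library 2 of mutant set 2, Nmd3 had an adjusted p of 0.0651. Leaving out wild-type set 1 or 2, which leaves 1 wild-type set, gave log2 differences of -0.61 and -0.58 for Npm1. In both of these fits the calls of Npm1, Nop16, Ftsj3 and Nmd3 were lost. There were 2 lower calls in the list without the filter on low values, 8 with median-of-ratios scaling, 7 after quantile normalization, and 20 with the set as a random block. Over all genes the lower calls numbered 559 (of 26268 genes), 1096, 1039 and 2063 in the same order.

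Genes linked to Rpl22 in earlier work were followed as a list of 11, of which 10 passed the filter, and 2 of these rose and 2 fell, where 6.97% of all genes tested rose and 10.5% fell. Their median log2 difference was -0.06, and -0.04 over all genes. They cover the p53 pathway, which responds to loss of ribosomal proteins, and genes that RPL22 or its paralogue is known to act on in mouse, fish or human cells. Trp53, which encodes p53, stood at 125, 120, 149, 146, 114 and 119 TPM in mutant libraries and 174, 172, 194 and 187 TPM in wild-type libraries. It fell by 0.50 ± 0.11 on the log2 scale (SE; adjusted p = 0.027, limma), with no overlap between genotypes, and by quantile-normalized values its adjusted p was 0.0524. Cdkn1a and Mdm2, both p53 target genes, rose. Cdkn1a, the cell cycle inhibitor p21, had 206 ± 20.7 TPM in mutant and 157 ± 1.1 TPM in wild-type cells (log2 difference 0.39 ± 0.09 SE, adjusted p = 0.034).

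Mdm2, the ubiquitin ligase that removes p53, had 82.6 ± 1.76 TPM in mutant and 65.6 ± 0.0955 TPM in wild-type cells and rose by 0.33 ± 0.07 (SE; adjusted p = 0.0225). Its partner Mdm4 had 105 ± 5.46 TPM in mutant and 112 ± 12.6 TPM in wild-type cells (adjusted p = 0.447). Rpl5 and Rpl11, the ribosomal proteins that bind MDM2, had log2 differences of 0.08 and 0.03 (adjusted p = 0.344 and 0.715). Lin28a, an RNA-binding regulator of pluripotency, had 10.4 ± 1.87 TPM in mutant and 18.4 ± 2.78 TPM in wild-type cells and fell by 0.77 ± 0.17 (SE; adjusted p = 0.025). Lin28b was below the filter, at 0.16 to 0.30 TPM in mutant and 1.09 to 1.34 TPM in wild-type libraries.

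The remaining linked genes did not pass. Smad2, a transducer of nodal signals, had 16.0 ± 2.56 TPM in mutant and 20.3 ± 0.184 TPM in wild-type cells (log2 difference -0.34, adjusted p = 0.121). Smad1, a transducer of BMP signals, had 5.89 ± 0.137 TPM in mutant and 5.93 ± 0.513 TPM in wild-type cells (adjusted p = 0.977), and Ubap2l had an adjusted p of 0.287. The calls of Trp53, Mdm2, Cdkn1a and Lin28a were each lost when mutant set 1, mutant set 3 or either wild-type set was left out, with adjusted p between 0.0502 and 0.195. Without the filter on low values those of Trp53 (0.0868), Cdkn1a (0.0931) and Lin28a (0.0864) were lost too.

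The 12 nearest protein-coding genes, 3 on each side of each paralogue, were followed as genes of the same neighbourhoods. None of the 5 that passed the filter passed limma's test, and 3 of them had an unadjusted p under 0.05, as did 4472 of all 12797 genes tested. Rnf207, which ends 6749 bases before Rpl22, had 2.23 ± 0.816 TPM in mutant and 0.92 ± 0.141 TPM in wild-type cells (log2 difference 0.72, adjusted p = 0.070). Chd5, a chromatin remodeller that starts 4580 bases after Rpl22, had 2.14 ± 1.06 TPM in mutant and 0.815 ± 0.113 TPM in wild-type cells (0.71, adjusted p = 0.101). Both had estimates in the direction of Rpl22, at levels near the filter, as had Nphp4 (0.09). Icmt, at 13.0 TPM in mutant and 14.6 TPM in wild-type cells, had an estimate in the opposite direction (-0.16).

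Eif5a2, a paralogue of the translation factor gene Eif5a that ends 6590 bases before Rpl22l1, was the only one of the neighbours of Rpl22l1 to pass the filter. It had 7.41 ± 0.294 TPM in mutant and 9.73 ± 0.233 TPM in wild-type cells, with no overlap (log2 difference -0.35 ± 0.10 SE, adjusted p = 0.057). All mutant libraries lay below all wild-type libraries for 19.4% of the genes tested. With the set as a random block the adjusted p of Eif5a2 was 0.0084, in a fit where 3398 of all 12797 genes tested passed. Icmt and Nphp4, near Rpl22, had adjusted p of 0.327 and 0.719. The other 7 neighbours stayed at or below 1.29 TPM in each library.

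The genes whose log2 levels followed the pair most closely over the 10 libraries are given as a description, since the libraries share 2 genotypes and 5 sets. For Rpl22 they were Rnf115, Ptgis and Rpl17 (Pearson r of 0.977, 0.974 and 0.972) and, in the opposite direction, the proteasome subunit gene Psmd2, Ywhag and Dnaja2 (-0.988, -0.986 and -0.985). Rpl17, of the large subunit, had 2742 ± 97.8 TPM in mutant and 2483 ± 28.4 TPM in wild-type cells. Psmd2 had 228 ± 12.9 TPM in mutant and 288 ± 2.54 TPM in wild-type cells. A gene picked for its likeness to either paralogue over both genotypes differs between them by that choice, so no test is given. With each genotype's mean subtracted, Phf19, Tctex1d2 and Cetn4 were the most alike instead (r of 0.950, 0.944 and 0.942).

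For Rpl22l1 the most alike genes were the chaperonin subunit gene Cct2, Trnt1, which encodes the enzyme that adds CCA ends to tRNAs, and Efhb (r of 0.990, 0.990 and 0.988). Cct2 had 500 ± 4.12 TPM in mutant and 636 ± 6.47 TPM in wild-type cells. In the opposite direction stood Ndrg1, Igsf21 and Socs3 (r of -0.993, -0.991 and -0.990). Socs3, the inhibitor of cytokine signalling that is induced by LIF in embryonic stem cells, had 95.2 ± 3.60 TPM in mutant and 44.4 ± 0.735 TPM in wild-type cells. Ndrg1 had 49.5 ± 2.55 TPM in mutant and 22.5 ± 0.078 TPM in wild-type cells. With genotype means subtracted the closest were Rpusd1, Paqr6 and Dcun1d5 (r of 0.924, 0.899 and 0.894).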

How the data were processed

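Poly(A) RNA of 10 E14 libraries was sequenced after VAHTS library preparation, per the labels. The authors deposited 1 TPM value per gene and library, to 2 decimals. The submitters' processing notes name Trim Galore, STAR, RSEM, DESeq2 and build mm10; no version, setting or strand mode is stated in the sources used here. All libraries sum to 1000000 TPM within rounding, so depth, and with it counting error, is unknown. Of 55401 gene identifiers, 55141 matched GENCODE M21, which gave positions and sequences.

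From the deposited TPM, log2(TPM + 1) was computed, the 12797 genes averaging 1 TPM or more were kept, the 2 libraries of a set were averaged, and 3 mutant sets were compared with 2 wild-type sets in limma 3.58.1 (R 4.3.3; trended eBayes, two-sided, residual degrees of freedom 3, prior 4.01, Benjamini-Hochberg over all tested genes, threshold 0.05). Fold changes understate the change of low genes.

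The members, lists and rules were chosen with earlier results of these data known. Named genes were both paralogues, 7 other pairs, the 11 linked genes, the pseudogene named for Rpl22, neighbours, the 3 most alike genes, and per list the 4 called genes that changed most, or, with none called, the 2 of smallest p. Of these, 1 is not reported here. Alternatives were another pseudocount (0.1), filter (none, or 5 TPM) and scaling, libraries in place of sets, blocks, and leaving out each set or library.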

Additional observations from a re-analysis of the deposited data

Results flagged for a closer look

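Within each genotype, the libraries of the 58 tested named genes and of the paralogue ratio were examined for one that stood apart, using Dixon's criterion at 95%, the gap to the nearest library divided by the genotype's range. Of 118 such groups 5 were picked out, and chance picks out about 5 in 100. Neither Rpl22, Rpl22l1 nor their ratio was among them. Rpl36a, the partner of Rpl36al, had 3672 TPM in library 2 of mutant set 1, against 3425 TPM in the nearest mutant library (gap over range 0.664). Rps27, the partner of Rps27l, had 5628 TPM in library 2 of wild-type set 1, against 5412 TPM in the nearest (0.952). Chd5, beside Rpl22, had 4.89 TPM in library 1 of mutant set 1, against 1.89 TPM in the nearest (0.730). Eif5a2, beside Rpl22l1, had 6.76 TPM in library 2 of mutant set 1, against 7.38 TPM in the nearest (0.628). Dcun1d5 had 37.8 TPM in library 1 of wild-type set 1, against 42.0 TPM in the nearest (0.884).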

How the results depend on the processing

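The directions of Rpl22, Rpl22l1 and their ratio held under each alternative run. The log2 difference of Rpl22l1 was -0.87 with median-of-ratios scaling and -0.83 after quantile normalization, -0.93 to -0.89 leaving out a set and -0.96 to -0.87 leaving out a library. That of Rpl22 was 0.26 and 0.18 under the same scalings, 0.18 to 0.26 leaving out a set and 0.20 to 0.24 leaving out a library. That of the ratio was -1.19 to -1.07 leaving out a set and -1.18 to -1.09 leaving out a library. The count of genes called, 2242, was 809 with no filter, 5269 with libraries taken as separate samples and 3398 with sets as a random block. It was 654 and 920 without mutant sets 1 and 3, 2393 without mutant set 2, 196 and 42 without wild-type sets 1 and 2, and 1632 to 2078 without a library. Median-of-ratios scaling gave 1097 higher and 1096 lower calls and quantile normalization 1073 and 1039, against 892 and 1350. Of the 78 ribosomal protein genes, 1 was called with a mean of at least 5 TPM, 12 after quantile normalization, 32 with libraries taken singly, 16 with sets as a random block, 0 to 4 leaving out a set and 0 to 1 leaving out a library. The cause was not tested.

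With set and replicate numbers as a replicate block, 5047 genes and 31 ribosomal protein genes were called. The labels do not say that equal numbers pair the samples, and deviations of same-numbered sets correlated at -0.164 for set 1 and -0.0904 for set 2. Depth, unknown here, limits what can be said of genes near 1 TPM.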
